A study of Mus musculus with 6 samples.

Results

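The 10 genes described here belong to the WNT pathway of the mouse ovarian follicle. They were the ligands Wnt4 and Wnt5a, the agonist Rspo1, the Frizzled receptors Fzd1, Fzd2 and Fzd4, the beta-catenin gene Ctnnb1, the TCF factors Tcf7l2 and Lef1, and the feedback gene Axin2. They were taken by symbol from the array's annotation, and every probe set that carried 1 of these symbols and no other was kept. This gave 26 of the 34945 probe sets with a single gene symbol, for 10 of 18193 genes, and 9 of the 10 genes had several probe sets. Probe sets of 1 gene, each a set of short oligonucleotides for its transcript, share a target and are not independent measurements of it.

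Old samples were secondary follicles of female C57BL/6J mice 32 weeks of age, and young samples were those of female C57BL/6J mice 9 weeks of age, with 3 samples of each age. The paper describes the mice as specific pathogen-free, but proposes that they might have been infected by viruses. The labels name no treatment, and the follicles were dissected out with needles. RNA was measured on Affymetrix 3' expression arrays, and the authors' RMA intensities were converted to log2. The labels call the samples biological replicates, and the sources used here do not give the number of mice or follicles behind a sample. The p-values therefore measure only how these samples spread, with a median SD of 0.10 (log2) within groups over all probe sets and 0.107 over the 26 described here.

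WNT proteins are secreted, lipid-modified ligands that bind Frizzled receptors and their LRP co-receptors. Without a ligand, a destruction complex built on Axin and APC marks beta-catenin for degradation. With a ligand, beta-catenin accumulates, enters the nucleus and works with TCF and LEF factors on target genes, among them Axin2, which feeds back on the pathway. R-spondins strengthen the signal by removing ubiquitin ligases that clear Frizzled receptors. In the mouse, Wnt4 and Rspo1 are required for the embryonic gonad to become an ovary, and granulosa cells of growing follicles use several pathway members.

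The receptor Fzd2 was lower in old mouse ovarian secondary follicles by every one of its probe sets, and 1 probe set of Ctnnb1 was lower by more. Tcf7l2 and Lef1 were lower by their brightest probe sets, while Wnt5a and Fzd1 were higher. Wnt4 was slightly lower, and Rspo1, Fzd4 and Axin2 did not pass the test. Calls needed both a 2-fold difference and an adjusted p no larger than 0.05 (limma, Benjamini-Hochberg over all 34945 probe sets), and SE stands for the standard error of a log2 fold change. Of the 26 probe sets, 3 were called lower, where 0.552% of all probe sets were, and the 3 came from 2 genes, Fzd2 and Ctnnb1. None was called higher by limma or SAM, although 6 were higher at an unadjusted p under 0.05, and 0.466% of all probe sets were called higher. The share of all probe sets at that unadjusted p was not counted, so no excess is read from the 6.

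Whatever the fold, 10 of the 26 probe sets were lower at the adjusted p, against a background of 13.8%, and 5 were higher, against a background of 8.95%. The other 11 did not pass. The 3 old values lay below the 3 young values in 14 probe sets (background 23.7%) and above them in 5 (background 17.6%, or 41.3% in either direction), and the ages overlapped in 7. The median log2 fold change, old minus young, was -0.13 over the 26 probe sets and -0.01 over all probe sets. Of all probe sets past the adjusted p, 60.7% were lower, but 50.4% after quantile normalization and 47.9% with arrays set to the same median. The WNT probe sets gave 9 lower and 5 higher and 8 lower and 5 higher under these settings. By the brightest probe set of each gene, 4 of the 10 genes were lower (background 13.3%) and 2 were higher (background 10.1%), and Fzd2 alone was called at a fold of 2 (background 0.126% lower and 0.638% higher). When a gene counted with at least 1 called probe set, Fzd2 and Ctnnb1 were lower (background 1.02%).

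**Figure D1:**
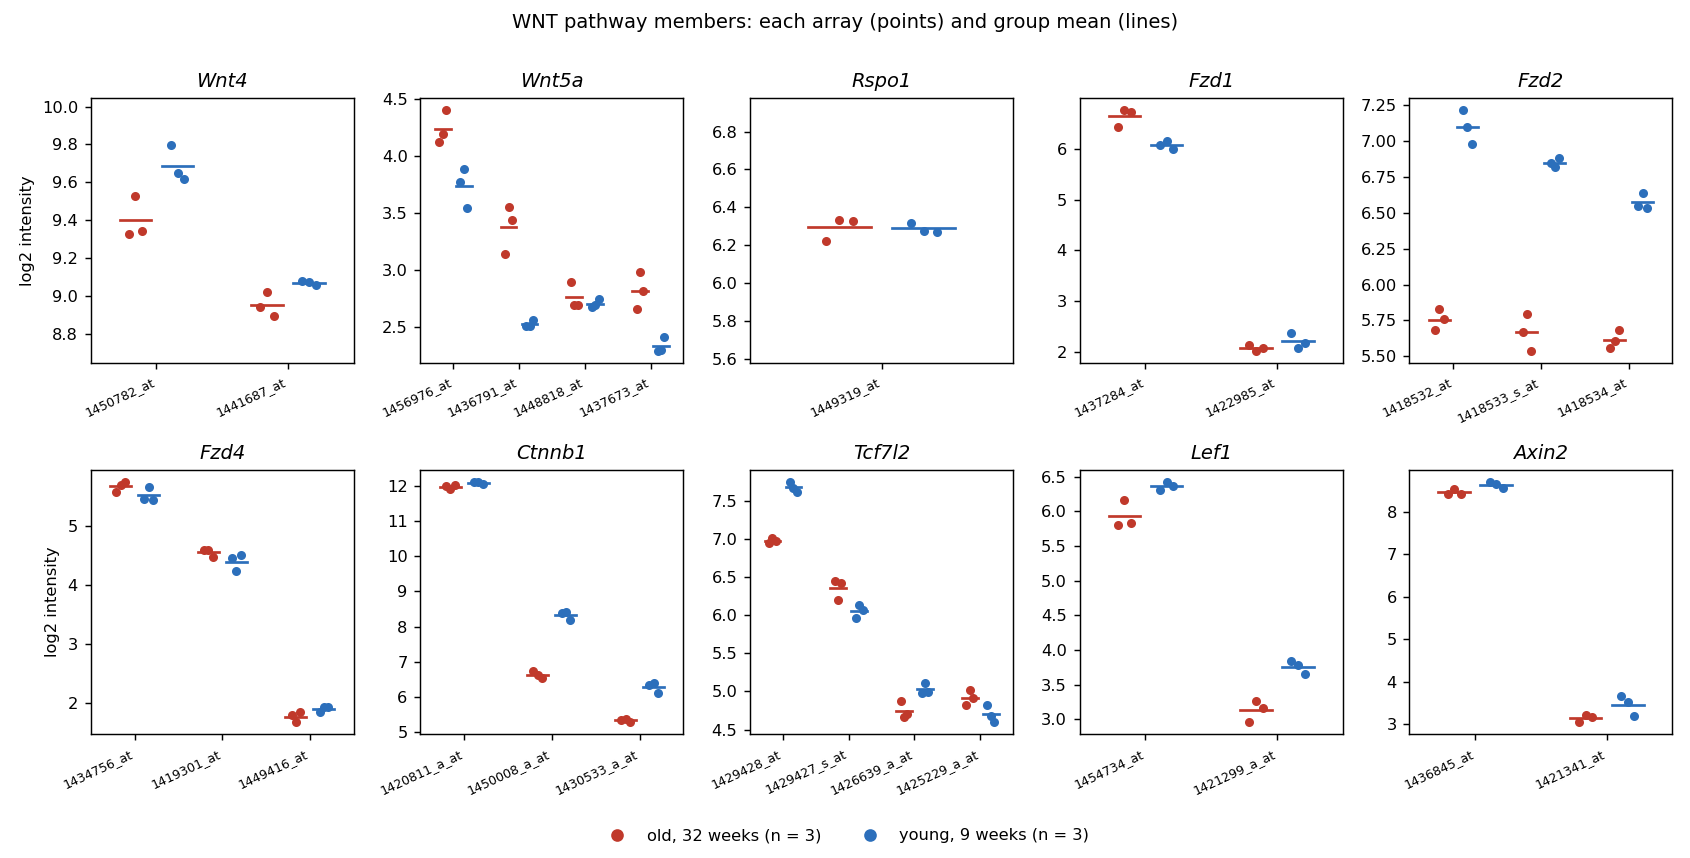
Log2 intensity (vertical axis, with a range of its own in each panel) of the 26 probe sets of the 10 genes, each array as a point and the mean of 3 arrays as a line, old in red and young in blue. The old points lie clear below the young ones in all 3 probe sets of Fzd2, while the 2 ages of Rspo1 cover the same range.

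Markers of other ovarian cells moved between the same samples. Of 9 ovarian surface epithelium markers, 8 were higher in old samples at the adjusted p (median log2 fold change 0.98, limma over genes), and their summed intensity ran from 1041 to 1108 in the old and from 749 to 789 in the young samples. Of 11 macrophage and myeloid markers, 8 were higher and 1 was lower, with sums of 602 to 627 in old and 365 to 370 in young samples. Of 9 stromal markers, 5 were higher and 2 lower, with sums of 5375 to 5494 in old and 4595 to 4987 in young samples. Of 12 oocyte markers, 9 were lower and none was higher, with sums of 26774 to 27273 in old and 30848 to 31746 in young samples. The granulosa markers, which define the main somatic cell of a secondary follicle, were bright at both ages, with sums of 22358 to 22995 in old and 22562 to 23172 in young samples, and 1 of 9 was lower and 1 higher. Smooth muscle markers were higher in 5 of 7 (median 0.28), and endothelial markers higher in 3 and lower in 1 of 9 (median 0.15). Theca and steroidogenic markers were higher in 2 of 6 (median 0.01), and the other 4 did not pass. The 2 were Star (1.87, adjusted p = 4.0e-06) and Cyp11a1 (1.34, adjusted p = 2.3e-05 by limma over genes), both called at a fold of 2. The lowest intensity on any array was 2.62, so the absence of a marker could not be read from a value of 0. Some markers were dim, such as Muc16, with a mean log2 intensity of 4.11 in old and 3.13 in young samples. Fewer cells of a type and less RNA per cell cannot be told apart in RNA of whole follicles, and the part of these markers in the results on the WNT genes was not tested. Along the transcript, the 3' probe set of Gapdh exceeded its 5' probe set by 1.51 ± 0.0048 in the old and 0.47 ± 0.014 in the young samples (log2, SD, n = 3 each, exact two-sided permutation test, p = 0.1, the smallest p that 3 against 3 samples allow). For beta-actin the same difference was 2.53 ± 0.050 in old and 1.48 ± 0.033 in young samples (exact permutation test, p = 0.1). For the polyA control RNAs dap, lys, phe and thr, bacterial transcripts that are added to a sample rather than made by it, the mean 3' minus 5' difference was 3.76 ± 0.09 in old and 2.83 ± 0.10 in young samples (SD, n = 3 each, exact permutation test, p = 0.1). In none of these controls did the ages overlap, so the difference cannot be told apart from age on these arrays. Its part in the results on all 10 WNT genes was not tested. Where each WNT probe set lies along its transcript was not analysed here.

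Among the ligands, Wnt4 is a granulosa cell product, and mice without it in granulosa cells have few antral follicles. Its brightest probe set had log2 intensities of 9.32, 9.53 and 9.34 in the old samples, against 9.80, 9.65 and 9.62 in the young samples. All 3 old samples lay below the young ones, old replicate 2 being the nearest to them, and the log2 fold change was -0.29 (SE 0.08, adjusted p = 0.039 by limma). This probe set no longer passed by limma after quantile normalization (adjusted p = 0.0695), cyclic loess (0.0600) or setting the arrays to the same median (0.0558). Nor did it pass with the replicate number as a block (0.0652), or when any 1 sample except old replicate 2 was left out (0.0616 to 0.118). The other probe set of Wnt4 had log2 intensities of 8.94, 9.02 and 8.89 in the old samples, against 9.08, 9.07 and 9.06 in the young samples, which also did not overlap, and its log2 fold change of -0.12 (SE 0.06, adjusted p = 0.202 by limma) did not pass.

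Wnt5a, a ligand that acts largely through branches that do not use beta-catenin, ran the other way. Its brightest probe set had log2 intensities of 4.13, 4.20 and 4.41 in the old samples, against 3.77, 3.89 and 3.55 in the young samples. The ages did not overlap, and the log2 fold change was 0.51 (SE 0.11, adjusted p = 0.014 by limma). A dimmer probe set had log2 intensities of 3.15, 3.55 and 3.44 in the old samples, against 2.51, 2.51 and 2.56 in the young samples. Its young values lay within a narrow range and all old values were above them, with a log2 fold change of 0.86 (SE 0.10, adjusted p = 0.0014 by limma), the largest rise among the 26 probe sets. The probe set 1437673_at rose too, with log2 intensities of 2.66, 2.98 and 2.82 in the old samples, against 2.29, 2.30 and 2.42 in the young samples and a log2 fold change of 0.48 (SE 0.09, adjusted p = 0.0085 by limma). The remaining one, 1448818_at, had log2 intensities of 2.89, 2.70 and 2.70 in the old samples, against 2.68, 2.70 and 2.75 in the young samples, and its overlapping ages gave 0.06 (SE 0.07, adjusted p = 0.629 by limma). All 4 probe sets of Wnt5a were dim on these arrays, since their means ranked at percentiles 11.0 to 32.7 of all probe sets. Wnt5a is also made by ovarian stroma and surface epithelium. In the old samples 8 of 9 surface epithelium markers were higher, while the stromal markers went both ways with 5 higher and 2 lower of 9, and their part in the rise of Wnt5a was not tested.

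Rspo1, a secreted agonist of the pathway, had a single probe set, with log2 intensities of 6.22, 6.33 and 6.33 in the old samples, against 6.32, 6.28 and 6.27 in the young samples. The ages covered the same range, and the log2 fold change was 0.0048 (SE 0.06, adjusted p = 0.964 by limma), with a 95% interval from -0.14 to 0.15.

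Of the 3 Frizzled receptors, the seven-span membrane proteins that bind WNT ligands, Fzd2 fell. Its brightest probe set had log2 intensities of 5.68, 5.83 and 5.76 in the old samples, against 7.21, 7.09 and 6.98 in the young samples. Every old sample was more than 1 log2 unit below every young sample, and the log2 fold change of -1.34 (SE 0.08, adjusted p = 5.6e-05 by limma) put the old level at 0.395 of the young level. The probe set 1418533_s_at had log2 intensities of 5.67, 5.80 and 5.54 in the old samples, against 6.85, 6.82 and 6.88 in the young samples, and fell to 0.441 of the young level, with a log2 fold change of -1.18 (SE 0.08, adjusted p = 9.2e-05 by limma). The third, 1418534_at, had log2 intensities of 5.56, 5.61 and 5.68 in the old samples, against 6.55, 6.64 and 6.53 in the young samples. Its ages were as clearly apart, and its log2 fold change of -0.96 (SE 0.06, adjusted p = 1.0e-04 by limma) passed the adjusted p and stayed just under a fold of 2. Under all alternatives run, the 3 log2 fold changes of Fzd2 lay between -1.40 and -0.89, and the 2 called probe sets were called each time they were fitted. Without probe sets of the suffixes _s_at, _x_at and _a_at, which can match more than 1 transcript or gene, 1 WNT probe set was called, the brightest of Fzd2.

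Fzd1 rose by its brightest probe set, which had log2 intensities of 6.43, 6.76 and 6.73 in the old samples, against 6.07, 6.16 and 6.00 in the young samples. Old replicate 1 was the lowest of the old samples and still above all young samples, and the log2 fold change was 0.57 (SE 0.10, adjusted p = 0.0063 by limma). Its other probe set was among the dimmest on the array, at percentile 3.94 of all probe sets, with log2 intensities of 2.14, 2.02 and 2.08 in the old samples, against 2.38, 2.08 and 2.18 in the young samples. Its ages overlapped and it did not pass, at -0.13 (SE 0.09, adjusted p = 0.334 by limma). Averaged over both probe sets, the log2 fold change of Fzd1 was 0.22 (SE 0.06, adjusted p = 0.0378 by limma).

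Fzd4, which mice need for a functional corpus luteum, had 3 probe sets and none passed. The brightest had log2 intensities of 5.58, 5.70 and 5.75 in the old samples, against 5.46, 5.67 and 5.45 in the young samples. The ages overlapped, and the log2 fold change was 0.15 (SE 0.08, adjusted p = 0.224 by limma), with a 95% interval from -0.04 to 0.35. The probe set 1419301_at was close to it, with log2 intensities of 4.59, 4.60 and 4.48 in the old samples, against 4.46, 4.23 and 4.50 in the young samples, overlapping ages and 0.16 (SE 0.09, adjusted p = 0.23 by limma). The dimmest probe set, 1449416_at, was at percentile 0.698 of all probe sets and had log2 intensities of 1.79, 1.67 and 1.84 in the old samples, against 1.84, 1.93 and 1.93 in the young samples, a log2 fold change of -0.14 (SE 0.07, adjusted p = 0.194 by limma).

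All 3 probe sets of Fzd2 were lower, while 1 of the 2 of Fzd1 passed the test. The other of Fzd1 was at percentile 3.94 of all probe sets, and probe sets of 1 gene are not independent measurements.

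**Figure D2:**
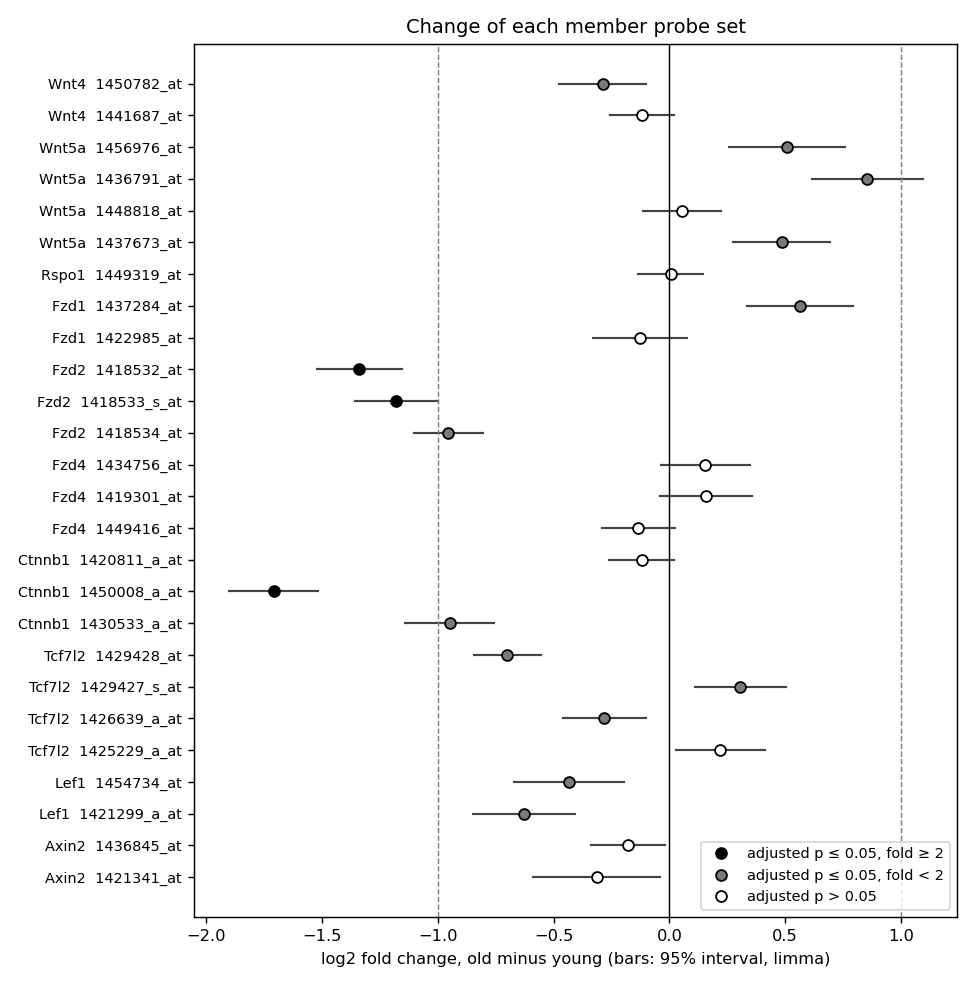
Log2 fold change, old minus young (horizontal axis), of each of the 26 probe sets, with its 95% interval from limma as a bar. The 3 black points, at -1.34, -1.18 and -1.71, are the probe sets called at a fold of 2, and none of the points lies to the right of 0.86.

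Ctnnb1 encodes beta-catenin, which carries the signal to the nucleus and also ties cadherins to the cytoskeleton at cell junctions. Its brightest probe set, 1420811_a_at, had log2 intensities of 11.99, 11.90 and 12.01 in the old samples, against 12.12, 12.10 and 12.05 in the young samples. Old samples lay just below young samples, without overlap, and the log2 fold change of -0.12 (SE 0.06, adjusted p = 0.2 by limma) did not pass, with a 95% interval from -0.26 to 0.02, although it did with a robust trended prior (adjusted p = 0.0203). The probe set 1450008_a_at had log2 intensities of 6.73, 6.62 and 6.53 in the old samples, against 8.39, 8.42 and 8.20 in the young samples. Its ages were far apart, and its log2 fold change of -1.71 (SE 0.08, adjusted p = 2.6e-05 by limma), 0.306 of the young level, was the largest in size among the 26 probe sets. The probe set 1430533_a_at had log2 intensities of 5.34, 5.39 and 5.28 in the old samples, against 6.34, 6.40 and 6.13 in the young samples. It also fell without overlap, by 0.95 on the log2 scale (SE 0.08, adjusted p = 3.3e-04 by limma), and reached a fold of 2 only without young replicate 3 (-1.03).

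Whether the probe sets of a gene changed by unequal amounts was tested within each array, as the log2 difference between a probe set and the brightest probe set of its gene, with limma over all 16752 such pairs. A pair was called where this difference moved by at least 1 between the ages at an adjusted p of at most 0.05. Of the 16 pairs in these genes, 2 were called (background 1.36%), and 7 passed the adjusted p alone (background 24.2%). One of the 7 was the pair of Fzd1, whose dimmer probe set lay at percentile 3.94 of all probe sets, so that no unequal change is read from it. The first called pair was in Ctnnb1, where 1450008_a_at was further below 1420811_a_at in the old samples, by a pair difference of -1.59 (SE 0.10, adjusted p = 5.8e-05 by limma). The pair value of this probe set ran from -5.48 to -5.26 in the old and from -3.85 to -3.69 in the young samples. For 1430533_a_at the pair value moved by -0.83 (SE 0.10, adjusted p = 0.0012). The 3 probe sets of Ctnnb1 thus differed by age to unequal extents. Of the 227 called pairs of the series, 168 had the dimmer probe set lower, the direction of both dimmer ones of Ctnnb1. Among the 7 WNT pairs past the adjusted p, 3 went that way. The 3' minus 5' differences for Gapdh, beta-actin and the added polyA controls were 1.04, 1.055 and 0.94 larger in the old group. The part of those differences in the results on Ctnnb1, Tcf7l2 and the other WNT genes was not tested.

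**Figure D3:**
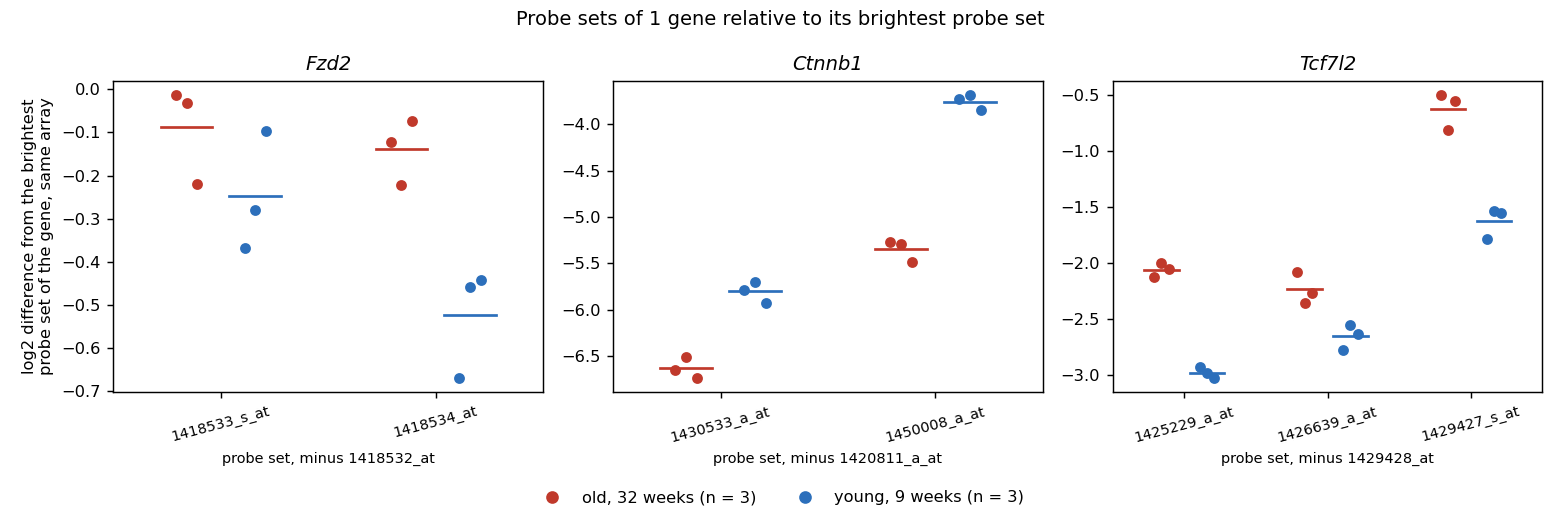
Log2 difference between each further probe set and the brightest probe set of its gene on the same array (vertical axis), for Fzd2, Ctnnb1 and Tcf7l2, with old arrays in red, young arrays in blue and lines at the means of 3 arrays. The old points of Ctnnb1 lie below the young ones, with a mean difference of -1.59 for 1450008_a_at, and those of Tcf7l2 lie above them.

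Tcf7l2 encodes a TCF factor that binds DNA with an HMG box and recruits beta-catenin to target genes. Its brightest probe set, 1429428_at, had log2 intensities of 6.95, 7.01 and 6.97 in the old samples, against 7.75, 7.66 and 7.62 in the young samples. All old samples lay well below the young ones, and the log2 fold change of -0.70 (SE 0.06, adjusted p = 3.4e-04 by limma) passed the adjusted p but not a fold of 2. The probe set 1429427_s_at went the opposite way, with log2 intensities of 6.45, 6.20 and 6.42 in the old samples, against 5.96, 6.13 and 6.07 in the young samples. Its old samples were all above the young ones, and its log2 fold change of 0.31 (SE 0.08, adjusted p = 0.037 by limma) was no longer past the threshold with the replicate number as a block (adjusted p = 0.0701) or when any 1 sample except old replicate 2 was left out (0.0606 to 0.113). The probe set 1426639_a_at had log2 intensities of 4.87, 4.66 and 4.70 in the old samples, against 4.98, 5.11 and 4.99 in the young samples. Its ages did not overlap, and the value of -0.28 (SE 0.08, adjusted p = 0.036 by limma) was lost with arrays at the same median (adjusted p = 0.071), with the replicate block (0.0684) and when any 1 sample except old replicate 1 was left out (0.0607 to 0.118). The dimmest, 1425229_a_at, had log2 intensities of 4.82, 5.02 and 4.92 in the old samples, against 4.83, 4.68 and 4.60 in the young samples. Here old replicate 1 lay just below young replicate 1, and the log2 fold change was 0.22 (SE 0.08, adjusted p = 0.097 by limma).

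Relative to the brightest probe set of Tcf7l2, the other 3 were all higher in old samples. The pair value of 1429427_s_at moved by 1.01 (SE 0.12, adjusted p = 9.6e-04 by limma), that of 1425229_a_at by 0.92 (SE 0.09, adjusted p = 3.6e-04) and that of 1426639_a_at by 0.42 (SE 0.11, adjusted p = 0.024). The first of these was the second called pair and stood at the fold limit, at 0.93 without young replicate 1, 0.95 without old replicate 1, 0.97 without old replicate 3, and 0.99 after quantile or cyclic loess normalization. The probe sets of Tcf7l2 were thus split in sign, and the mean of all 4 gave -0.11 (SE 0.05, adjusted p = 0.133 by limma), which did not pass. In Fzd2, by comparison, the pair values of 1418533_s_at and 1418534_at moved by 0.16 (adjusted p = 0.308 by limma) and 0.38 (adjusted p = 0.024). The second passed the adjusted p, so unequal change was seen in Fzd2 too, while all 3 of its probe sets were lower.

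Lef1, a TCF factor closely related in its HMG box, was lower by both of its probe sets. The brighter had log2 intensities of 5.81, 6.17 and 5.83 in the old samples, against 6.31, 6.43 and 6.37 in the young samples. Old replicate 2 was the nearest to the young samples but did not reach them, and the log2 fold change was -0.43 (SE 0.10, adjusted p = 0.021 by limma). This probe set no longer passed by limma without old replicate 1 (adjusted p = 0.0637), old replicate 3 (0.0714), young replicate 2 (0.0682) or young replicate 3 (0.0586). The dimmer had log2 intensities of 2.96, 3.27 and 3.17 in the old samples, against 3.84, 3.79 and 3.65 in the young samples, also without overlap, and its log2 fold change of -0.63 (SE 0.09, adjusted p = 0.0034 by limma) passed under every alternative that fitted it. The pair value of the Lef1 probe sets moved by -0.19 (SE 0.11, adjusted p = 0.217 by limma), so unequal change was not shown.

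Axin2, a scaffold of the destruction complex and a common readout of beta-catenin signaling, did not pass. Its brightest probe set had log2 intensities of 8.42, 8.55 and 8.42 in the old samples, against 8.71, 8.65 and 8.56 in the young samples. The old samples lay just below the young ones, without overlap, and the log2 fold change was -0.18 (SE 0.07, adjusted p = 0.099 by limma), with a 95% interval from -0.34 to -0.02 before adjustment. The dimmer probe set had log2 intensities of 3.05, 3.22 and 3.17 in the old samples, against 3.66, 3.52 and 3.20 in the young samples. Young replicate 3 lay within the range of the old samples, and the log2 fold change of -0.31 (SE 0.12, adjusted p = 0.096 by limma) did not pass by limma. It passed by SAM (adjusted p = 0.0487) and, by limma, without young replicate 3 (-0.45, adjusted p = 0.0172). With all 6 arrays, the brightest probe set passed with a robust trended prior (adjusted p = 0.0214) and when only probe sets with a mean log2 intensity of at least 5 were fitted (0.0400).

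RefSeq promoter windows (GRCm38.p6, 250 bases before to 50 after a start) were at hand for 8 of the 10 genes, 13 windows in all, and were searched on both strands for the TCF and LEF core motif in its forms AACAAAG or ATCAAAG or TACAAAG or TTCAAAG. Of the 13 windows 2 held a match, and 16.9% of all 32851 windows of that length did. The sequences shown are both windows of Tcf7l2, because its probe sets were split in sign and it has more than 1 annotated start, the matching window of Lef1, and the window of the target gene Axin2, 5′ to 3′ with matches in capitals.
Tcf7l2, chr19:55741560-55741859, plus strand: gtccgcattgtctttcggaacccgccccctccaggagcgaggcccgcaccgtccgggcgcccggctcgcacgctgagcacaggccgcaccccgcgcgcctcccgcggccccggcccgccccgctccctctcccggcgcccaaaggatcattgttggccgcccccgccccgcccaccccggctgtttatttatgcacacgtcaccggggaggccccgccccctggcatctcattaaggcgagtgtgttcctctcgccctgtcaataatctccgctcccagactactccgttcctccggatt
Tcf7l2, chr19:55895071-55895370, plus strand: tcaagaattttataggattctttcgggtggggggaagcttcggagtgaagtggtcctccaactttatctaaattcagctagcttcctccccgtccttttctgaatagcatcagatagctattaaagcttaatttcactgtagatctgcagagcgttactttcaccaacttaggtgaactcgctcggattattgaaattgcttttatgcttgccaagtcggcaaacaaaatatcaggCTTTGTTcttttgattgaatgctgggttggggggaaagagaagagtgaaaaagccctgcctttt
Lef1, chr3:131156044-131156343, plus strand: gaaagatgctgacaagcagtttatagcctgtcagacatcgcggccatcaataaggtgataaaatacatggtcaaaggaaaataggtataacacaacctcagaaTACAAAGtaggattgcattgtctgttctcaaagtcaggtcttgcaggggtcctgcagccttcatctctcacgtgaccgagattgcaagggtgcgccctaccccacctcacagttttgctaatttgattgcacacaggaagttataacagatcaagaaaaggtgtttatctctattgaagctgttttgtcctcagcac
Axin2, chr11:108920099-108920398, plus strand: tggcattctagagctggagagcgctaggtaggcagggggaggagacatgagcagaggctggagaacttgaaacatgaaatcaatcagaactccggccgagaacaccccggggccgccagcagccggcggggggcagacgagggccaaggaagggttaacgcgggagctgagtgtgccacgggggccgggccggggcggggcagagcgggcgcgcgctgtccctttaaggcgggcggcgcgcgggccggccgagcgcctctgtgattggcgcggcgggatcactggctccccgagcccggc
The match in the downstream window of Tcf7l2 is AACAAAG on the minus strand, with its leftmost base 14 bases before the start, and that of Lef1 is TACAAAG on the plus strand, from 147 bases before the start. The other Tcf7l2 window and the Axin2 window held none of these letters, which is a description of the windows only. Which start each probe set reports was not analysed here.

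Of 111 other WNT pathway genes listed by role, 109 were measured, and by their brightest probe sets 22 were lower and 9 higher at the adjusted p (limma over 18193 genes, backgrounds 13.3% and 10.1%), with a median log2 fold change of -0.04 against 0.00 over all genes. Neither limma nor SAM called any at a fold of 2, and 30 were lower and 18 higher at an unadjusted p under 0.05. The share of all genes at that unadjusted p was not counted, so no excess is read from these 2 counts. The count of lower genes was 14 without old replicate 1, old replicate 3 or young replicate 2. After quantile normalization 16 were lower and 14 higher, and after cyclic loess 16 were lower and 13 higher. The count of higher genes was 5 without young replicate 2 and 4 without young replicate 3.

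Among the 17 measured nuclear partners of beta-catenin and TCF factors, 5 were lower and none was higher, with a median of -0.21. They were Ctnnbip1, an inhibitor that keeps beta-catenin from TCF factors (-0.53, SE 0.07, adjusted p = 0.0020 by limma), the corepressor Tle4 (-0.31), the coactivator Bcl9 (-0.32) and the acetyltransferases Crebbp (-0.27) and Ep300 (-0.31). The list of other Frizzled receptors and co-receptors, 14 measured, was lower in 4 and higher in none. Ryk was at -0.39, Ptk7 at -0.32 and Fzd8 at -0.25, against -1.34 for Fzd2. The 14 include Smo, a relative that serves Hedgehog signaling (0.02, which did not pass). Of 20 Dishevelled and destruction complex genes, 4 were lower, with the kinase gene Csnk1e at -0.42, the ubiquitin ligase subunit Btrc at -0.34 and Dvl2 at -0.40, and its paralog Dvl1 was higher (0.25). Of 6 cadherin and catenin partners, Ctnna2 (-0.32) and Jup (-0.27) were lower, while the E-cadherin gene Cdh1 was at 0.02 and did not pass.

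Of 20 other ligands and genes of their secretion, 2 were lower, Wls, which carries WNT proteins to the cell surface (-0.36), and the ligand Wnt6 (-0.36), and 1 was higher, Notum (0.33), an enzyme that inactivates WNT proteins. Of 8 genes of the R-spondins and their receptors, 3 were lower and 2 higher. The ubiquitin ligase gene Znrf3 was at -0.38 and the R-spondin receptor Lgr4 at -0.39, and its paralog Lgr5, known in the mouse ovary from the surface epithelium, was higher at 0.74 (SE 0.12, adjusted p = 0.0049 by limma). Of 14 secreted inhibitors, 1 was higher, the dim Wif1 (0.25). Of 16 measured target genes, 3 were lower and 6 higher, so target genes moved both ways. Znrf3 is among these lower genes and Notum and Lgr5 among the higher, and each is also counted above under another role. The transcription factor genes Sox4 (-0.55) and Myc (-0.38) were lower, while the cyclin genes Ccnd1 (0.26) and Ccnd2 (0.24), the follistatin gene Fst (0.21) and Cd44 (0.61) were higher. A dimmer probe set of Sox4, 1419157_at, was the 1 probe set of 257 called at a fold of 2 (-1.03), and it was named after its value was seen.

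**Figure D4:**
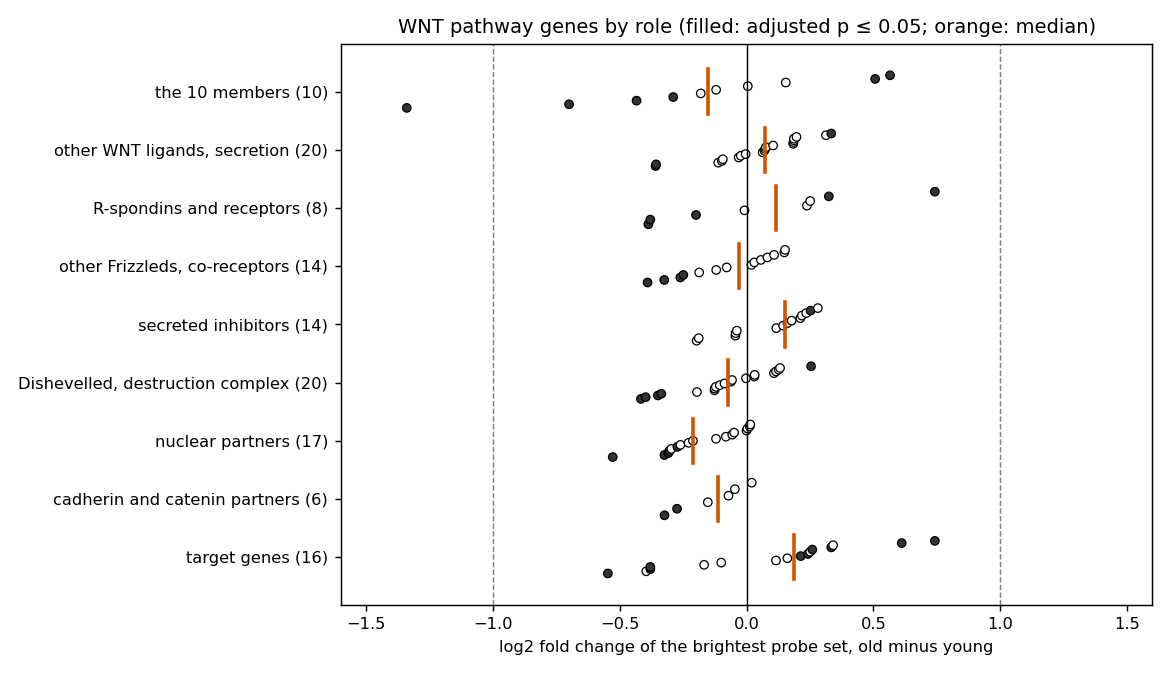
Log2 fold change, old minus young, of the brightest probe set of each gene (horizontal axis), by role, with the number of measured genes in brackets, filled points past an adjusted p of 0.05 and an orange line at the median. Fzd2, at -1.34, is the only point beyond a fold of 2, and the medians of the other roles lie between -0.21 and 0.19.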

How the data were processed

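RNA of secondary follicles was hybridised to Affymetrix 3' expression arrays for mouse, 3 for old and 3 for young mice. The authors used RMA (version not given in the sources used here). The deposited intensities were linear, ranging over 2.62 to 13880. Their log2 was taken without a pseudocount or a filter on low values. Of 45101 probe sets, 64 controls were left out, 34945 carried 1 gene symbol and were tested, 932 carried several and 9160 were not listed in the platform annotation used. Symbols were updated through gene IDs, of which 99.1% were found in RefSeq (GRCm38.p6).

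Old and young samples were compared in R 4.3.3 with limma 3.58.1 (two-sided moderated test of lmFit and eBayes, adjusted by Benjamini-Hochberg), across all 34945 probe sets, over the brightest probe set of 18193 genes, and over 16752 pairs of a dimmer probe set and the brightest of its gene. The brightest probe set is the one with the highest mean log2 intensity over all 6 arrays. A call needed a 2-fold difference together with an adjusted p no larger than 0.05. Every probe set of the 10 genes was named, and of the other pathway genes up to 3 with the smallest p in each role list. Further genes of these lists were named after their values were seen. The genes, the pathway and marker lists and the rules were chosen with earlier results of these data known. The scripts were tested on simulated data. Alternatives were other normalizations, a minimum mean log2 intensity of 5, a fold of 1.5, a robust trended prior, array weights, SAM (written anew, 20 label assignments), all probe sets but controls, probe sets without the suffixes _s_at, _x_at and _a_at, a replicate block and leaving out each sample. The number of arrays limits the precision.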

Additional observations from a re-analysis of the deposited data

How the results depend on the processing

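Of the refits of single WNT probe sets under the alternatives, 364 kept their place relative to both thresholds, 26 were no longer past a threshold and 7 were newly past one. No probe set past a threshold changed sign, but 2 that never passed did, Wnt5a 1448818_at (0.06, and -0.01 after quantile normalization or without old replicate 1) and Rspo1 (0.0048, and down to -0.0155 with single samples left out). The count called lower was 3, and was 1 without probe sets of suffix _s_at, _x_at or _a_at (18 of the 26 fitted), 7 at a fold of 1.5, and 3 to 4 when single samples were left out. The count called higher was 0, was 1 at a fold of 1.5, and stayed 0 when single samples were left out. The share of all probe sets called at a fold of 1.5 was not counted. At the adjusted p alone, the lower count of 10 was 5 without those suffixes and 7 to 9 with single samples left out, and the higher count of 5 was 2 with a minimum mean log2 intensity of 5 (15 of the 26 fitted) and 4 to 5 with single samples left out. Both smaller counts came from fits with fewer probe sets. Genes called lower were 1 by the brightest probe set and 2 with at least 1 called probe set. Called pairs were 2, and 1 after quantile or cyclic loess normalization, and 1 to 2 with single samples left out. For the other WNT pathway genes, alternatives were chosen after seeing the data. They gave 14 to 18 lower and 4 to 8 higher with single samples left out, and 16 lower and 14 higher after quantile normalization. The cause of these shifts was not tested.

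No pairing of the samples by replicate number was seen. Deviations from the group means correlated at 0.065, 0.014 and 0.043 for samples of the same number. Old replicate 3 correlated best with young replicate 2 (0.052). With 3 samples a group, such correlations cannot exclude a pairing. With the replicate number as a block, 3 WNT probe sets were called lower and 0 higher, 8 were lower and 4 higher at the adjusted p, 1 gene was called lower, 2 pairs were called, and 16 other pathway genes were lower and 6 higher. With 3 arrays a group, changes of dim probe sets such as those of Wnt5a rest on signals near the low end of the array.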
